A study of Mus musculus with 6 samples.

Results

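Genes that mark the granulocyte, monocyte and mast cell lineages were followed in haematopoietic stem cells (HSCs) from mouse bone marrow. The set is a list of 45 lineage genes chosen by their known function, of which 44 had a row with a single gene symbol in the deposited table of 22180 genes; Il1rl1 was not analysed here. The cells were sorted from unchallenged mice as free of lineage markers, positive for Sca1 and Kit and negative for Flt3. Chrm1-/- cells, which lack the muscarinic acetylcholine receptor gene Chrm1, gave 3 arrays, and WT cells gave 3 arrays; both groups are labelled as C57Bl/6. Neither group received a treatment, ages are not given, and neither how the Chrm1 allele was made nor whether each array is a separate mouse is stated. The p-values therefore measure only the spread between these arrays, which may be technical. All values are log2 signals, so that a difference of 1 is 2-fold.

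HSCs give rise to granulocytes, monocytes and mast cells through progenitors that take on lineage programmes step by step. Genes for the proteases and the peroxidase of primary granules are switched on early, at the promyelocyte stage and before it, while the proteins of secondary and gelatinase granules are made later in neutrophil maturation. Low-level expression of such lineage genes in cells that are still multipotent is known as lineage priming. Mast cells and basophils store proteases and amines in granules and carry the high-affinity receptor for immunoglobulin E.

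The array medians lay between 6.49 and 6.57. The transcript cluster of Chrm1 itself read 8.16, 7.52 and 7.58 on the Chrm1-/- arrays and 7.45, 7.44 and 7.67 on the WT arrays; neither the deleted part nor the position of its probes is stated, so it checks nothing about the labels. Of 15 stem cell markers with a row, 14 reached 6.77, the median over all genes. Kit, the stem cell factor receptor used in the sort, averaged 10.88 ± 0.10 in Chrm1-/- and 10.90 ± 0.05 in WT cells (SD, n = 3 each). Cd34, a progenitor surface sialomucin, averaged 11.30 ± 0.07 in Chrm1-/- and 11.24 ± 0.08 in WT cells (SD, n = 3 each). Procr, a receptor used to mark stem cells, averaged 8.20 ± 0.04 in Chrm1-/- and 8.45 ± 0.05 in WT cells (SD, n = 3 each). Its groups did not overlap, as for 5.79% of all tested genes, and the difference was -0.25 ± 0.10 (SE). Its unadjusted p was 0.0393 and its adjusted p 0.996 in limma, and 2.99% of all tested genes had an unadjusted p under 0.05. Of the lymphocyte markers, 2 of 9 for B cells and 3 of 11 for T and NK cells reached that median. It was also reached by 9 of 9 erythroid, 6 of 7 megakaryocyte and 4 of 10 stroma and endothelium markers with a row. Genes of other lineages than the myeloid ones were thus present by this measure too. The deposited table holds no detection calls, so a gene is described as present here when its mean over the 6 arrays was at or above this median of 6.77. For comparison, 95% of 1394 odorant and vomeronasal receptor genes, which blood cells are not known for, had means under 6.89. In bulk cells, fewer cells of a type and less RNA per cell cannot be told apart. Probes differ in how strongly they respond, so a level is set against these thresholds and not read as an amount of RNA relative to another gene.

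By this measure the primary granule genes and part of the mast cell and monocyte genes of the set were present in the sorted cells. Whether these signals came from stem cells or from other cells within the sort was not tested. Most of the set's genes of later neutrophils were not. In a list of further neutrophil genes outside the set, described further on, 15 of 22 were. That list is not confined to late neutrophil genes, and Nkg7, among the 15, is also counted here as a T and NK marker. Its 7 genes below the median were Bpi, Chil3, Ltb4r1, Padi4, Ceacam10, Stfa2l1 and Clec12a. Of the 44 genes, 23 were at or above the median and were tested between the genotypes, and 21 were below it. By the definition of a median, 11094 of all 22180 genes were so, and the share of the set is near that. The 23 were 4 of 4 primary granule genes, 0 of 6 secondary and gelatinase granule genes, 1 of 7 other neutrophil genes, 4 of 4 myeloid transcription factors, 9 of 14 monocyte, macrophage and dendritic cell genes and 5 of 9 mast cell and basophil genes. On single arrays, 16 genes reached the median on all 6, 16 on 0 and 12 on some, and the same counts over all genes are not given. Just inside the threshold stood Cyp11a1, a steroid synthesis enzyme gene also expressed in mast cells and basophils, at a mean of 6.78; just outside stood Prss34 at 6.75 and Fcgr1 at 6.74. With the receptor genes' threshold the number was 22 of 44, since Cyp11a1 dropped out, and 10376 of all 22180 genes passed it.

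**Figure D1:**
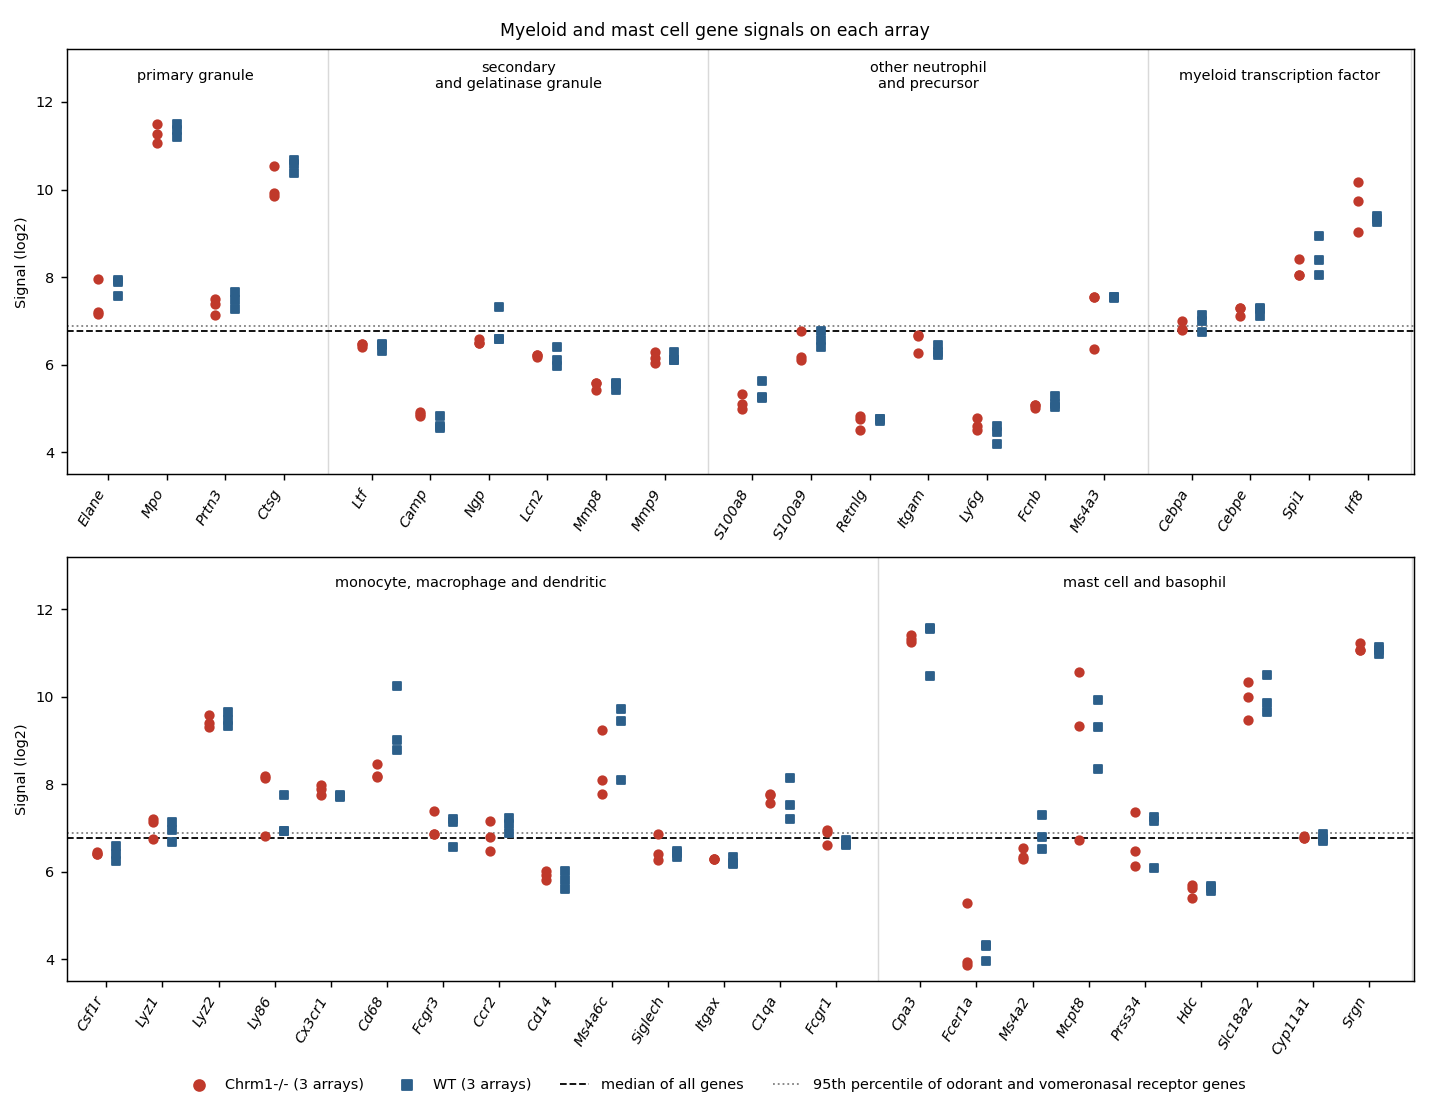
Log2 signal of each of the 44 genes (vertical axis) on the 3 Chrm1-/- arrays (circles, left) and the 3 WT arrays (squares, right), by role, with the median of all genes (dashed, 6.77) and the receptor genes' 95th percentile (dotted, 6.89). The 4 primary granule genes lie above both lines on all arrays, and the 6 secondary and gelatinase granule genes have means below them.

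No gene of the set passed the adjusted threshold of 0.05 between the genotypes in limma, where the background over all 11094 tested genes was also 0%. At an unadjusted p under 0.05 in limma there was 1 of the 23, Cd68, or 4.35%, against a background of 2.99% of all tested genes, with 1.6% of all tested genes past it and lower in Chrm1-/- as Cd68 was. The groups did not overlap for 1 of the 23, again Cd68, against 5.79% of all tested genes, with 2.97% lower in Chrm1-/-. Of the 23 genes, 10 had a higher and 13 a lower mean in Chrm1-/-, with a median difference of -0.06 where all tested genes had 0.00. Over the 44 genes, with those below the median included, 22 were higher and 22 lower. These shares are near the background.

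The counts moved when arrays that stood apart were left out. Chrm1-/- replicate 1 and WT replicate 3 had the highest sums of the myeloid genes and of the lymphocyte markers described further on. They were left out together as a choice made after the data were seen. The arrays were thus picked by the same values that were then tested, so the shares below cannot be read as an excess over the background. An unadjusted p under 0.05 was then reached in limma by 4 of 22 tested genes (Cd68, Ctsg, Elane and Ms4a6c, all lower in Chrm1-/-), against 5.38% of all tested genes. The groups did not overlap for 8 of the 22 (36.4%), against 31.9% of all tested genes, since groups of fewer arrays overlap less. No gene passed the adjusted threshold, and the lowest adjusted p of the set was 0.852 in limma.

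**Figure D2:**
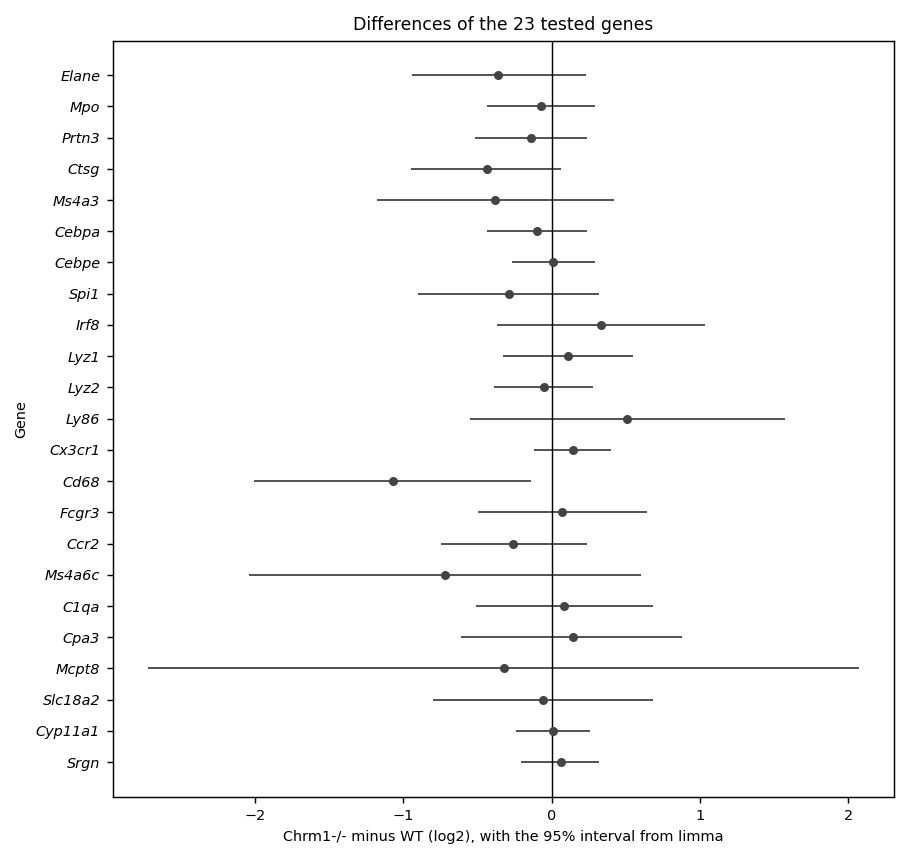
Difference in log2 signal, Chrm1-/- minus WT (horizontal axis), for the 23 tested genes (vertical axis, by role), with 95% intervals from limma. The interval of Cd68, from -2.01 to -0.14, is the one that leaves out 0, and that of Mcpt8 is the widest, from -2.72 to 2.07.

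The primary granule genes encode the peroxidase and serine proteases of azurophil granules. Mpo, myeloperoxidase, read 11.49, 11.07 and 11.26 on the Chrm1-/- arrays, against 11.20, 11.35 and 11.49 on the WT arrays. The 2 groups spanned nearly the same range, and the difference was -0.07 ± 0.15 (SE) with a 95% interval from -0.44 to 0.29.

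Ctsg, the gene of cathepsin G, read 10.53, 9.92 and 9.86 in Chrm1-/- cells, against 10.38, 10.67 and 10.59 in WT cells. Chrm1-/- replicates 2 and 3 were below all WT arrays, and replicate 1 lay among them. Its difference was -0.44 ± 0.21 (SE), with an interval from -0.95 to 0.06 and an unadjusted p of 0.0749 in limma. Elane, which encodes neutrophil elastase, read 7.95, 7.17 and 7.21 in Chrm1-/- cells, against 7.88, 7.58 and 7.94 in WT cells. Chrm1-/- replicates 2 and 3 were again below all WT arrays, and here replicate 1 was above all the others. The difference of Elane was -0.36 ± 0.24 (SE), with an interval from -0.94 to 0.23. Without Chrm1-/- replicate 1, the groups did not overlap for Ctsg and Elane, the differences were -0.66 and -0.61, and both had an unadjusted p under 0.05 in limma. With that array left out, 15.7% of all tested genes did not overlap and 4.16% had such a p.

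Prtn3, the gene of proteinase 3 that lies next to Elane on chromosome 10, read 7.13, 7.49 and 7.38 in Chrm1-/- cells, against 7.27, 7.47 and 7.67 in WT cells. It did not share the pattern of its neighbour, since Chrm1-/- replicate 1 was the lowest of the 6 arrays. Its difference was -0.14 ± 0.16 (SE). All 4 primary granule genes had lower means in Chrm1-/-, with a median difference of -0.25, and 0 of the 4 had an unadjusted p under 0.05 in limma. Of all 11094 tested genes, 5545 were higher and 5463 lower. Mpo was at 0.03 without Chrm1-/- replicate 2, and Prtn3 at 0.06 without Chrm1-/- replicate 1 and WT replicate 3 together. Ctsg and Elane kept their sign throughout, and no test was made of the 4 as a group. Summed over the 4 genes, the log2 signals came to 37.1, 35.7 and 35.7 on the Chrm1-/- arrays and to 36.7, 37.1 and 37.7 on the WT arrays.

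The set's genes of later granules stayed low in both genotypes. Ltf, lactoferrin of secondary granules, lay between 6.40 and 6.48 in Chrm1-/- and between 6.31 and 6.48 in WT cells. Camp, the cathelicidin gene, lay between 4.82 and 4.92 in Chrm1-/- cells and between 4.56 and 4.83 in WT cells. Ngp, a secondary granule protein gene, lay between 6.49 and 6.59 in Chrm1-/- cells, and read 6.59, 6.58 and 7.32 in WT cells. WT replicate 3 was thus the one array on which a secondary granule gene passed 6.77. The lipocalin gene Lcn2 and the gelatinase and collagenase genes Mmp9 and Mmp8 had means over the 6 arrays of 6.19, 6.16 and 5.53.

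Other genes of maturing neutrophils in the set were below the threshold too. The calprotectin subunit genes S100a8 and S100a9 had means of 5.26 and 6.46, the secreted protein gene Retnlg 4.72 and the ficolin gene Fcnb 5.10. Ly6g, the neutrophil surface antigen that lineage antibodies commonly recognise, lay between 4.52 and 4.78 in Chrm1-/- and between 4.18 and 4.60 in WT cells. Itgam, the integrin chain CD11b, read 6.69, 6.66 and 6.26 in Chrm1-/- cells and 6.45, 6.23 and 6.28 in WT cells.

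Ms4a3, a tetraspan protein gene of granulocyte and monocyte precursors, was the one gene of this group above the threshold. It read 7.55, 6.37 and 7.55 in Chrm1-/- cells, against 7.55, 7.52 and 7.55 in WT cells. A single array, Chrm1-/- replicate 2, stood apart from the other 5, and the difference of -0.38 ± 0.33 (SE) became 0.01 without it. The value 7.55 appears on 4 arrays, which limits how far its spread can be read.

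The region before the transcription start was compared between the early and late granule genes, because these groups differed in whether they were present. RefSeq promoters of GRCm38.p6 were held for 39 of the 45 genes, and the 250 bases before the start were searched on both strands for letters that match the sites of PU.1 (GAGGAA), of C/EBP factors (TTGCNNAA) and of GATA factors (AGATAA). The 4 primary granule promoters are at chr10:79886062-79886311 (+ strand) for Elane, chr10:79879417-79879666 (+ strand) for Prtn3, chr11:87793534-87793783 (+ strand) for Mpo and chr14:56102575-56102824 (- strand) for Ctsg. They are given 5′ to 3′ on the gene's strand, with matches to PU.1 and C/EBP letters in capitals.
Elane: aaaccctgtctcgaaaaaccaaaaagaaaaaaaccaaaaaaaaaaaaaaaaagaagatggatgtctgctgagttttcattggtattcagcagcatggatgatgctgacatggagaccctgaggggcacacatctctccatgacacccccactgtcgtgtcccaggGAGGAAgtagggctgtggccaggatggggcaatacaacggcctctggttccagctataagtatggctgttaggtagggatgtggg
Prtn3: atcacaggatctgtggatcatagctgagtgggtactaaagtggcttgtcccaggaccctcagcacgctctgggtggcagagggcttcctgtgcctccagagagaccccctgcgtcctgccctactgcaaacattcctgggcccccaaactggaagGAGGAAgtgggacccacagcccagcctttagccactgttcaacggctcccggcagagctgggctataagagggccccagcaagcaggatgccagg
Mpo: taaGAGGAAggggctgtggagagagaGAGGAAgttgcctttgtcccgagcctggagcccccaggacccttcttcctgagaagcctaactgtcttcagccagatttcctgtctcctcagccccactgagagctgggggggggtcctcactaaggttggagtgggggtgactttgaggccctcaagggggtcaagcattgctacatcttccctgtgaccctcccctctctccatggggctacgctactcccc
Ctsg: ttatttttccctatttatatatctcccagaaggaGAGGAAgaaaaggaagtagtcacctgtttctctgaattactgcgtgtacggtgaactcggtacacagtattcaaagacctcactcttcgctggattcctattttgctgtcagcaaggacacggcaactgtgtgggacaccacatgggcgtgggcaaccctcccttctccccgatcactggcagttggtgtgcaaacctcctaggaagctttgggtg

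All 4 held the PU.1 letters, against 23.1% of 27025 promoters of the same length, and 0 of the 4 held the C/EBP letters. In Elane and Prtn3 the match began 85 and 95 bases before the start. Of the 5 secondary and gelatinase granule promoters held, 4 had the C/EBP letters, against 9.55% of all promoters, and 3 had the PU.1 letters. Camp held neither, nor the GATA letters. The 5 are at chr9:109849457-109849706 (- strand) for Camp, chr9:111019042-111019291 (+ strand) for Ltf, chr9:110419558-110419807 (+ strand) for Ngp, chr2:32387740-32387989 (- strand) for Lcn2 and chr9:7558179-7558428 (+ strand) for Mmp8.
Camp: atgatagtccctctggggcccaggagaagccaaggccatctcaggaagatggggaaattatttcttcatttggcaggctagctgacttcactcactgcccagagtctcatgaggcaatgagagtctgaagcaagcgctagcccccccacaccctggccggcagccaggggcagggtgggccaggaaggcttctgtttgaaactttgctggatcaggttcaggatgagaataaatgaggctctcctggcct
Ltf: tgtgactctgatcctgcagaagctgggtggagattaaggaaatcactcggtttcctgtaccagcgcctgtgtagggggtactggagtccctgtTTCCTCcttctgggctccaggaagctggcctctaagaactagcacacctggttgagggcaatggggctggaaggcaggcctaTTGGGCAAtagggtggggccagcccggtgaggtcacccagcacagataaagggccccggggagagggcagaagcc
Ngp: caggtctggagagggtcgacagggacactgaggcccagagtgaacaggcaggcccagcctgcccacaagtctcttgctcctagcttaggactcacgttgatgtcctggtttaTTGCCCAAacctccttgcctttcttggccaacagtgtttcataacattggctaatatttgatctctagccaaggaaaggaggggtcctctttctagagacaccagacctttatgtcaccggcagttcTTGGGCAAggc
Lcn2: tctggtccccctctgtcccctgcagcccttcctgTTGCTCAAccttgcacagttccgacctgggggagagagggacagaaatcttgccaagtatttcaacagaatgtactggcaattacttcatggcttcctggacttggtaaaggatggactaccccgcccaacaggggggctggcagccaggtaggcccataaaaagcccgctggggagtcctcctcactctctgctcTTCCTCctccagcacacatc
Mmp8: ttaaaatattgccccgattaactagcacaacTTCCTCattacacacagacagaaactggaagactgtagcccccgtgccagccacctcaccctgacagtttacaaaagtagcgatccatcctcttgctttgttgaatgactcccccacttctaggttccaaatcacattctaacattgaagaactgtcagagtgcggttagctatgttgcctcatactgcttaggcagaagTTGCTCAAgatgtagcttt

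In these promoters 0 bases were shared by a C/EBP and a PU.1 match. Over the whole set, the C/EBP letters were in 3 of 20 promoters of genes above the threshold and in 11 of 19 promoters of the others. The PU.1 letters were in 8 of 20 and 8 of 19. The GATA letters, which 10.3% of all promoters held, were in 3 of 20 and 7 of 19, and in 6 of 10 promoters of mast cell and basophil genes. A match describes letters and not a bound site, and these counts were made after the levels were seen. Which promoters to print was settled after the search, and every promoter held for these granule groups is shown.

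The transcription factors that specify granulocytes and monocytes were present in both genotypes. Spi1 encodes PU.1, which drives both lineages, and read 8.05, 8.42 and 8.04 in Chrm1-/- cells, against 8.05, 8.39 and 8.94 in WT cells. WT replicate 3 was the highest of the 6 arrays and the groups overlapped, with a difference of -0.29 ± 0.25 (SE). Cebpa, needed for the entry into the granulocyte and monocyte lineages, read 6.99, 6.80 and 6.81 in Chrm1-/- cells, against 7.0, 7.14 and 6.75 in WT cells, with a difference of -0.10 ± 0.14 (SE). Cebpe, which acts later in granulocytes and is needed for secondary granules, read 7.30, 7.30 and 7.11 in Chrm1-/- cells, against 7.30, 7.12 and 7.27 in WT cells, with an interval for the difference from -0.27 to 0.29.

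Irf8, which favours monocytes and dendritic cells over granulocytes, read 10.18, 9.03 and 9.75 in Chrm1-/- cells, against 9.32, 9.25 and 9.40 in WT cells. The 3 WT arrays lay close together, and the Chrm1-/- arrays lay on either side of them, with a difference of 0.33 ± 0.29 (SE). It was 0.07 without Chrm1-/- replicate 1 and 0.64 without replicate 2. Its second transcript cluster read 6.50, 7.01 and 7.11 in Chrm1-/- and 7.12, 6.83 and 6.83 in WT cells. There Chrm1-/- replicate 1 was the lowest array, where it was the highest in the first cluster, and with the mean of both clusters the difference was 0.14.

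Among the monocyte and macrophage genes, Cd68, a lysosomal membrane glycoprotein of macrophages, had the largest difference of the 23 in either direction. It read 8.47, 8.16 and 8.19 in Chrm1-/- cells, against 8.79, 9.0 and 10.25 in WT cells. All Chrm1-/- arrays lay below all WT arrays, and WT replicate 3 lay far above the other WT arrays. The difference was -1.07 ± 0.39 (SE), with an unadjusted p of 0.0309 and an adjusted p of 0.996 in limma. Without WT replicate 3 it was -0.62 ± 0.15 (SE), with an unadjusted p of 0.00979 and an adjusted p of 0.957 in limma. Leaving out the outlying array narrows the spread of the WT group, and 4.69% of all tested genes then had an unadjusted p under 0.05 in limma. The unadjusted p rose above 0.05 without Chrm1-/- replicate 1, 2 or 3, at 0.0556, 0.0844 and 0.0817 in limma, and without moderation of the variance, at 0.0828.

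Other macrophage genes did not follow Cd68 as a group. Of the 9 tested monocyte, macrophage and dendritic cell genes, 5 had a higher and 4 a lower mean in Chrm1-/-, with a median difference of 0.07. WT replicate 3 was the highest array for 3 of the 9, and Chrm1-/- replicate 1 for another 3. C1qa, a chain of complement C1q made by macrophages, read 7.77, 7.58 and 7.76 in Chrm1-/-, against 7.20, 7.52 and 8.14 in WT cells. Its highest value was on WT replicate 3, as for Cd68, while its difference was 0.08 ± 0.25 (SE). Csf1r, the receptor for macrophage colony-stimulating factor, lay between 6.41 and 6.46 in Chrm1-/- and between 6.26 and 6.59 in WT cells, below the threshold on all arrays. Summed over the 14 genes with a row, log2 signals were 105.2, 100.9 and 100.7 on the Chrm1-/- arrays and 101.1, 103.6 and 104.3 on the WT arrays; the part of other cells in the Cd68 difference was not tested.

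Ms4a6c, a tetraspan gene of monocytes, split the arrays across genotypes. It read 9.23, 8.10 and 7.78 in Chrm1-/-, against 9.44, 9.73 and 8.10 in WT cells, so that Chrm1-/- replicate 1 and WT replicates 1 and 2 were high and the other 3 arrays low. The difference was -0.72 ± 0.54 (SE), with an interval from -2.04 to 0.60. Without WT replicate 3 it was -1.22, with an unadjusted p under 0.05 in limma. Ly86, which encodes a partner of a Toll-like receptor relative on myeloid cells and B cells, read 8.20, 6.81 and 8.15 in Chrm1-/-, against 6.93, 7.76 and 6.94 in WT cells. Here Chrm1-/- replicates 1 and 3 were high and replicate 2 was the lowest of all arrays, and the difference was 0.51 ± 0.44 (SE). It was 0.96 without Chrm1-/- replicate 2, and 0.27 and 0.29 without replicates 1 and 3.

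The lysozyme genes, which lie next to each other on chromosome 10 and whose transcripts are close copies, showed little spread. Lyz2, the lysozyme of macrophages and granulocytes, read 9.30, 9.58 and 9.41 in Chrm1-/- cells, against 9.32, 9.47 and 9.66 in WT cells, with an interval from -0.39 to 0.28. Lyz1 read 7.20, 7.14 and 6.75 in Chrm1-/- cells, against 6.95, 6.68 and 7.13 in WT cells; how far the probes of the 2 genes share signal was not tested. The fractalkine receptor gene Cx3cr1 read 7.89, 7.98 and 7.75 in Chrm1-/- cells, against 7.75, 7.74 and 7.72 in WT cells. Fcgr3, a low-affinity receptor for immunoglobulin G, read 7.39, 6.86 and 6.87 in Chrm1-/- cells, against 6.56, 7.20 and 7.15 in WT cells. Ccr2, the chemokine receptor that brings monocytes out of the marrow, read 7.17, 6.79 and 6.48 in Chrm1-/- cells, against 6.88, 7.24 and 7.09 in WT cells. In each of these the groups overlapped or met, and differences ran from -0.26 to 0.14. Cd14, the lipopolysaccharide co-receptor, Itgax, the integrin chain CD11c, Siglech of plasmacytoid dendritic cells and Fcgr1, the high-affinity receptor for immunoglobulin G, had means from 5.87 to 6.74, below the threshold.

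**Figure D3:**
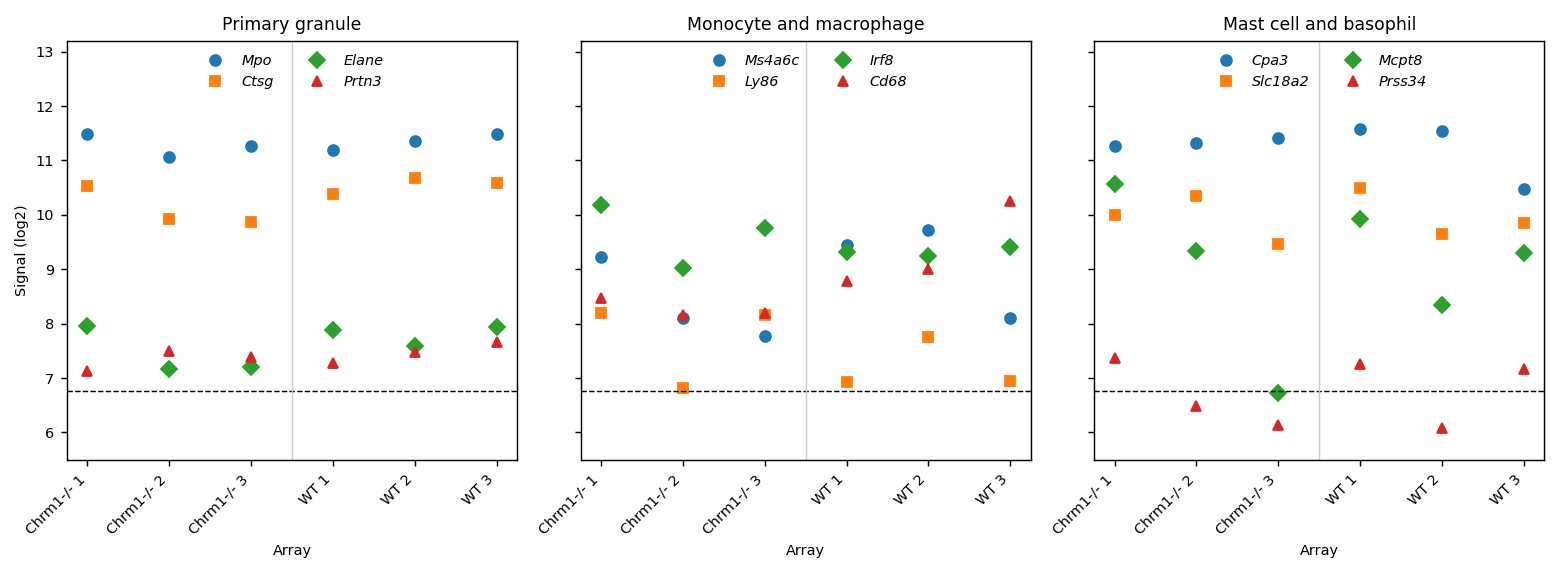
Log2 signal (vertical axis) on each array (horizontal axis, Chrm1-/- left and WT right) of 4 primary granule, 4 monocyte and macrophage genes, Irf8 among them, and 4 mast cell and basophil genes, with the median of all genes dashed. Cd68 is highest on WT replicate 3, and Mcpt8 and Prss34 are both highest on Chrm1-/- replicate 1 and low on Chrm1-/- replicate 3.

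Several mast cell and basophil genes gave high signals in these sorted cells. Cpa3, the mast cell carboxypeptidase, read 11.26, 11.32 and 11.41 in Chrm1-/- cells, against 11.57, 11.54 and 10.47 in WT cells. WT replicate 3 was the lowest array by far, and the difference of 0.14 ± 0.31 (SE) became -0.23 without it. Srgn, serglycin, the proteoglycan core that binds granule proteases in many blood cells, read 11.06, 11.06 and 11.22 in Chrm1-/- cells, against 11.14, 10.97 and 11.06 in WT cells, with an interval from -0.21 to 0.32. Slc18a2, the vesicular transporter that loads amines such as histamine into granules, read 10.00, 10.34 and 9.47 in Chrm1-/- cells, against 10.50, 9.64 and 9.85 in WT cells. Its groups overlapped, with a difference of -0.06 ± 0.31 (SE). Cyp11a1 read 6.82, 6.77 and 6.77 in Chrm1-/- cells, against 6.75, 6.71 and 6.87 in WT cells.

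Mcpt8, the basophil protease gene, varied more than any other gene of the set. It read 10.56, 9.33 and 6.72 in Chrm1-/- cells, against 9.93, 8.35 and 9.30 in WT cells. The highest and the lowest array were both Chrm1-/-, and the range of 3.84 was wider than that of 99.6% of all tested genes. The difference of -0.32 ± 0.99 (SE) had an interval from -2.72 to 2.07, so the arrays put no narrow bound on a genotype effect for this gene. Prss34, another basophil protease gene, read 7.36, 6.48 and 6.13 in Chrm1-/- cells, against 7.25, 6.09 and 7.16 in WT cells. Chrm1-/- replicate 1 and WT replicate 1 were the highest arrays for both proteases, and Chrm1-/- replicate 3 and WT replicate 2 the lowest for both.

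Of the immunoglobulin E receptor, the genes of the alpha and beta chains had means below the threshold. Fcer1a, its ligand-binding alpha chain, read 5.30, 3.94 and 3.87 in Chrm1-/- cells, against 3.97, 4.31 and 4.34 in WT cells. Its highest array was again Chrm1-/- replicate 1. Ms4a2, the beta chain of the same receptor, read 6.54, 6.29 and 6.35 in Chrm1-/- cells, against 6.52, 7.30 and 6.79 in WT cells. Fcer1g, outside the 45 genes and named after its values were seen, encodes the gamma chain, which other Fc receptors also use; it had a mean of 8.16 and was above the threshold on all 6 arrays. Hdc, which makes histamine, had a mean of 5.61.

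Mcpt8 and Ctsg lie side by side on chromosome 14, within a run of granule protease genes from Cma1 to Gzmb, where the gene table lists 15 protein-coding genes. The neighbours were looked at after the values of Mcpt8 and Ctsg were seen. Of the 14 with a row, these 2 reached the median and the other 12 had means from 3.92 to 6.53. Among the 12 were the connective tissue mast cell protease genes Cma1 and Mcpt4 at 5.04 and 4.75 and the mucosal ones Mcpt1 and Mcpt2 at 4.63 and 4.07. Gzmb, granzyme B of cytotoxic cells, read 6.18, 5.85 and 5.89 in Chrm1-/- cells, against 6.95, 6.50 and 7.82 in WT cells.

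**Figure D4:**
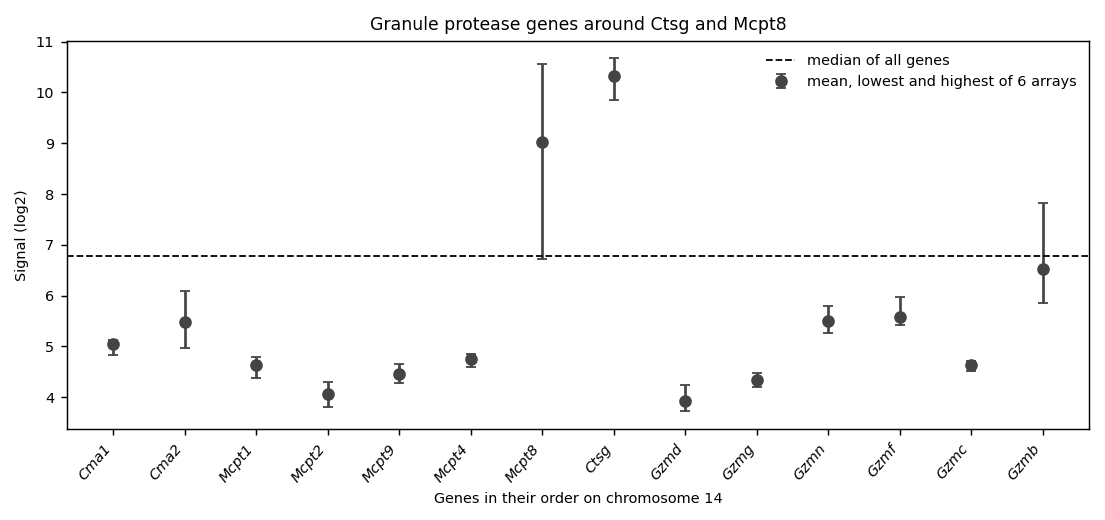
Mean log2 signal over 6 arrays (vertical axis, bars from the lowest to the highest array) of granule protease genes in their order on chromosome 14 (horizontal axis), with the median of all genes dashed. Mcpt8 and Ctsg have means above the line, and the other 12 genes have means below it.

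The spread between arrays differed widely among the myeloid genes. The median range over the 6 arrays was 0.81 for the 23 tested genes and 0.60 for all tested genes, and 8 of the 23 exceeded 0.95, the value that 25% of all tested genes exceed, while 9 of the 23 were under the median of all tested genes. The 8 were Mcpt8, Cd68, Ms4a6c, Ly86, Ms4a3, Irf8, Cpa3 and Slc18a2. At the other end, Cyp11a1, Cebpe, Srgn and Cx3cr1 had ranges from 0.16 to 0.26. No test was made of these ranges.

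Much of the spread separated arrays of one genotype. Chrm1-/- replicate 1 was the highest array for 6 of the 23 genes (26.1%), where it was so for 14.6% of all tested genes. Chrm1-/- replicates 2 and 3 were the lowest for 6 and 7 of the 23 (26.1% and 30.4%), where they were so for 12.8% and 15.4% of all tested genes. WT replicate 3 was the highest for 6 (26.1%), against 18.0% of all tested genes. Chrm1-/- replicate 1 and WT replicate 3 also carried the highest sums of lymphocyte markers. For the 9 B cell markers the sums were 58.8, 56.7 and 57.2 in Chrm1-/- and 56.3, 56.4 and 59.5 in WT cells. For the 11 T and NK cell markers they were 74.4, 71.7 and 72.4 in Chrm1-/- and 73.4, 72.3 and 74.0 in WT cells. The T and NK sum of Chrm1-/- replicate 1 leaned on Cd3g, which had the widest range of these markers, 2.29, and read 7.16 there. Cd3e and Cd3d read 5.89 and 6.12 on that array and were not highest on it. These sums thus do not show a rise of T and NK markers as a group on Chrm1-/- replicate 1. The part of other cell types in the spread of the myeloid genes was not tested.

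**Figure D5:**
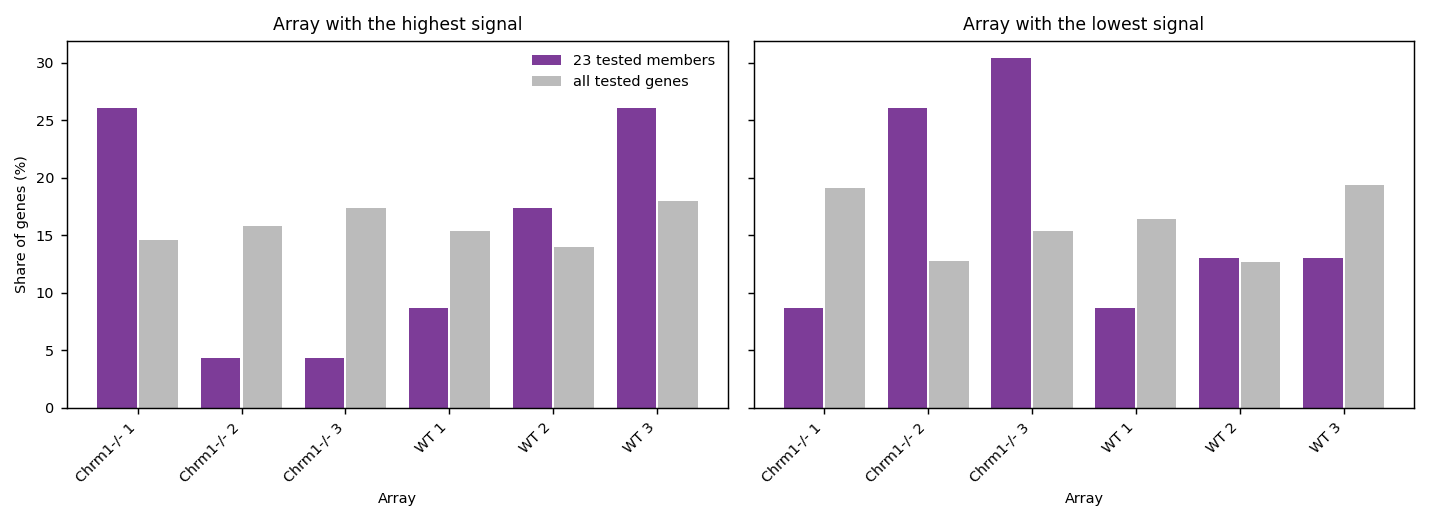
Share of genes (vertical axis, percent) for which each array (horizontal axis) was the sole highest, left, or the sole lowest, right, among the 23 tested myeloid genes and among all tested genes. Chrm1-/- replicate 1 is highest for 26.1% of the 23, and Chrm1-/- replicate 3 lowest for 30.4%.

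Further genes of the same lineages, taken from lists by function, gave few differences between the genotypes. Of 12 tested myeloid transcription regulators, 9 had a higher and 3 a lower mean in Chrm1-/-, with a median difference of 0.03. Tfec, a relative of the mast cell regulator Mitf that is expressed in macrophages, was the one with an unadjusted p under 0.05 in limma, or 8.33% of the 12, against 2.99% of all tested genes. It read 9.65, 9.72 and 9.45 in Chrm1-/- cells, against 10.40, 9.76 and 10.70 in WT cells. The groups did not overlap, as for 5.79% of all tested genes, with a difference of -0.68 ± 0.25 (SE), an unadjusted p of 0.0335 and an adjusted p of 0.996 in limma.

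Of 13 tested cytokine receptors of myeloid cells, 9 were higher and 4 lower, and 0 had an unadjusted p under 0.05 in limma. The receptor chains Ifngr1 for interferon gamma and Il1r1 for interleukin 1 differed by 0.08 ± 0.14 (SE) and 0.11 ± 0.39 (SE). Flt3, whose protein the sort selected against, averaged 10.17 ± 0.19 in Chrm1-/- and 9.99 ± 0.11 in WT cells (SD, n = 3 each). Its RNA signal was thus above the threshold on all 6 arrays, in cells sorted as negative for the protein. The reason was not tested. Of 15 tested further neutrophil genes, 9 were higher and 6 lower, 0 had an unadjusted p under 0.05 in limma, and 1, Anxa1, had groups without overlap (6.67%, against 5.79% of all tested genes). Cd63, a granule membrane tetraspanin, Alox5ap, which helps to make leukotrienes, and Nkg7, a cytotoxic granule protein gene, differed by 0.00 ± 0.09 (SE), 0.25 ± 0.13 (SE) and -0.02 ± 0.19 (SE).

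Of 15 tested further monocyte and dendritic cell genes, 7 were higher and 8 lower, and 0 had an unadjusted p under 0.05 in limma. The signalling adaptor gene Tyrobp averaged 11.02 ± 0.11 in Chrm1-/- and 11.01 ± 0.28 in WT cells, and the protease gene Ctss 10.64 ± 0.38 in Chrm1-/- and 10.94 ± 0.24 in WT cells (SD, n = 3 each). Emb, embigin, differed by -0.05 ± 0.12 (SE). Of 8 tested further mast cell and basophil genes, 3 were higher and 5 lower, and 0 had an unadjusted p under 0.05 in limma. Of these, Ikzf2, an Ikaros family factor, Ndst2, which sulfates heparin in mast cells, and Rab27b, which acts in granule release, differed by 0.25 ± 0.15 (SE), -0.08 ± 0.23 (SE) and -0.17 ± 0.17 (SE). The other 15 of that list were below the threshold, among them the tryptase genes Tpsb2 and Tpsab1 at means of 5.18 and 5.46.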

How the data were processed

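Gene expression was measured in sorted HSCs of 3 Chrm1-/- and 3 WT samples, grouped by the genotype in their titles. Per the series design text, amplified RNA (NuGEN) went onto Affymetrix mouse gene ST arrays, which the authors ran through the maker's TAC software. Its version, summarization and normalization steps are not stated. The authors' deposited values cover 41345 transcript clusters, lie between 3.02 and 13.67 and, by that span, were read as log2 signals. They were used without further normalization.

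Clusters with 1 symbol in the platform annotation were kept (23521), those with several (1814) or none (16010) were left out, and a gene with several clusters was represented by its brightest on average. Genes whose mean reached 6.77, the median over genes, were tested as Chrm1-/- minus WT with limma 3.58.1 in R 4.3.3 (lmFit and eBayes, two-sided, Benjamini-Hochberg over all tested genes, threshold 0.05); the fit was checked on simulated data. Python 3.11.15 with pandas 2.3.3 made tables and searched promoters, and matplotlib 3.10.9 drew plots. The number of arrays limits the precision; the median standard error of a difference was 0.17.

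The 45 genes and all lists were chosen with earlier results of these data known. Named are all 45 genes and, of each related list, genes with an unadjusted p under 0.05 or else up to 3 with the highest means; Anxa1, Fcer1g, the tryptases, the genes of the closing observations and the protease neighbours were added after their values were seen. Alternatives covered the filter, normalization, cluster choice, moderation, array weighting, blocking on the replicate number, each array left out and, added after seeing the data, 2 arrays left out together. The motif search, the counts of extreme arrays and the chromosome 14 neighbours were also added then.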

Additional observations from a re-analysis of the deposited data

How the results depend on the processing

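Under 16 alternatives, 1 of them chosen after seeing the data, no gene of the set passed the adjusted threshold in limma, with the lowest adjusted p at 0.852. In 321 of 353 refits the difference kept its sign, in 7 it was 0.00 (Mpo, Cebpe, Cyp11a1 and Srgn), and in 25 it reversed. The rule for this was set at 2 decimals after values near 0 were seen. The filter, moderation and replicate block settings return the same difference, so no sign could change there. The mean of all clusters does so too for genes with 1 cluster. The share that kept its sign is therefore no measure of stability. Of the 23 genes, 10, Srgn with its 0.00 included, never reversed. The cause of the reversals was not tested. The added alternative, without Chrm1-/- replicate 1 and WT replicate 3 together, gave 4 genes with an unadjusted p under 0.05 and 8 without overlap, and Prtn3 at 0.06, Cebpe at -0.01, Spi1 at 0.01, Lyz2 at 0.10, Fcgr3 at -0.01 and Cpa3 at -0.19. With array weights Cpa3 was at -0.02 and Slc18a2 at 0.02. On leaving out each array in turn, Mcpt8 ran from -1.17 to 0.75, Cpa3 from -0.23 to 0.33, Slc18a2 from -0.26 to 0.19, Ms4a3 from -0.58 to 0.01, Mpo from -0.18 to 0.03, Cebpe from -0.05 to 0.07, Cyp11a1 from -0.02 to 0.06, Lyz1 from -0.01 to 0.25, Lyz2 from -0.14 to 0.04, Fcgr3 from -0.14 to 0.18, Prtn3 from -0.24 to -0.04, Spi1 from -0.50 to -0.05, Irf8 from 0.07 to 0.64, Ly86 from 0.27 to 0.96 and C1qa from -0.13 to 0.34. The count with an unadjusted p under 0.05 was 2 with array weights (Cd68 and Ctsg; 4% of all tested genes) and 0 without moderation (2.28% of all), and ran from 0 to 2 on leaving out an array (from 3.04% to 4.69% of all): Ctsg and Elane without Chrm1-/- replicate 1, Irf8 and Ly86 without replicate 2, none without replicate 3, and Cd68 and Ms4a6c without WT replicate 3. Genes whose groups did not overlap then numbered from 1 to 6, the most without WT replicate 3 (26.1% of the 23, with 17.7% of all tested genes); fewer arrays overlap less by construction. The median difference ran from -0.13 to 0.01. Over all genes, 0 passed, 1 without moderation (Apmap), and from 0 to 1 on leaving out an array (Snord49a without Chrm1-/- replicate 3, Gdpd3 without WT replicate 1). Of the set, 11 of 44 genes were above the 75th percentile, as were 5547 of all 22180 genes by its definition.

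Samples share replicate numbers. Same-numbered deviations correlated at -0.031, 0.009 and -0.011, and differently numbered ones from -0.023 to 0.034. No shared deviation by number was seen, but so few arrays cannot exclude a pairing. With the replicate number as a block, 0 genes passed in limma, as in the fit without it, and 1 of the 23 had an unadjusted p under 0.05, with Cd68 at -1.07.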

Other observations

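A few genes outside the 45, picked after their values were seen, were highest on Chrm1-/- replicate 1 or WT replicate 3. They do not speak for their lists. Of the list that holds Cybb, Ncf1 was highest on Chrm1-/- replicate 1, at 7.48, with WT replicate 3 at 7.47. Cyba and Ncf4 of that list were highest on Chrm1-/- replicate 3 and WT replicate 1, at 8.86 and 7.43. Cd3e and Cd3d, listed with Cd3g, were not highest on Chrm1-/- replicate 1. Cybb, the membrane subunit of the phagocyte oxidase, read 9.04, 6.74 and 6.74 in Chrm1-/- cells, against 6.62, 7.04 and 6.82 in WT cells, so that Chrm1-/- replicate 1 was the only high array. Cd3g, a chain of the T cell receptor complex, read 7.16, 4.87 and 4.95 in Chrm1-/- cells, against 6.32, 4.97 and 5.47 in WT cells. Maf, a transcription factor of macrophages and T cells, read 6.85, 5.48 and 5.29 in Chrm1-/- cells, against 6.85, 5.73 and 9.59 in WT cells, with its highest value on WT replicate 3 as for Cd68. Psap, a lysosomal protein gene, read 9.66, 9.86 and 9.23 in Chrm1-/- cells, against 9.70, 10.48 and 10.90 in WT cells. WT replicate 2 was also high for Psap, and Chrm1-/- replicate 1 did not stand apart.

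Some genes hold the same value to 2 decimals on several arrays. At least 3 of the 6 arrays held the same value for 6 of the 44 genes (13.6%) and for 12.2% of all genes, and at least 4 did for Ms4a3 and for 2.94% of all genes. Where values repeat, the spread within a group can be very small, as for Ms4a3 in WT cells (SD 0.02, n = 3). The cause was not tested.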
